A study of Mus musculus with 6 samples.

Results

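The mitochondrial ribosomal protein genes were taken as every gene whose array probe carried exactly 1 gene symbol in the platform annotation, with that symbol starting with Mrpl or Mrps followed by a digit. This gave 72 genes of the 18048 named on the array, 44 of the large subunit (Mrpl) and 28 of the small subunit (Mrps) by name, and 85 probes. Where a gene had several probes, the one with the highest mean over the 6 arrays stood for it. The genotypes compared were homozygous mutant kidney, labelled KO (3 mice), and wild-type kidney, labelled WT (3 mice), with 1 single-colour CodeLink oligonucleotide array per mouse. The labels name neither the mutated gene nor the strain or age. Each sample was part of a kidney frozen after the blood had been washed out, so the RNA came from all cell types of the organ together.

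Mitochondria carry their own ribosome, which translates the few proteins of the respiratory chain and ATP synthase that the mitochondrial genome encodes. All of its protein components are encoded in the nucleus, made in the cytosol and imported. Some descend from bacterial ribosomal proteins and others were added during the evolution of mitochondria. The proximal tubule of the kidney is rich in mitochondria and depends on their respiration for solute reabsorption.

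Each level below is the log2 of a probe's intensity divided by its array's median, and each difference is KO minus WT, given with its standard error from a limma fit across all probes. Array medians of the deposited values were 0.994 to 0.997. A low-signal limit of 0.59 log2 was exceeded by 37.6% to 41.7% of values per array. The kidney label could be checked on nephron markers. Of the proximal tubule list, 12 of 13 tested markers had a mean above that limit, as did 7 of 8 markers of other nephron segments on the array. The remaining marker, Podxl, was below the limit on every array and was not tested. Replicate 1 of both genotypes stood apart in sex-linked transcripts. Xist, expressed from the inactive X chromosome of females, read a linear 7.93 at its brighter probe in KO replicate 1 and 4.63 in WT replicate 1, against 0.552 to 0.858 on the other 4 arrays, while the Y-linked Eif2s3y read 0.161 and 0.0434, against 8.01 to 10.96. Kdm5d, also Y-linked, differed less, at 1.15 and 1.24 in replicate 1 of KO and WT against 1.76 to 2.42. The dimmer Xist probe and the Y-linked Uty read at most 0.73, under the linear low-signal limit of 1.51, and did not set replicate 1 apart. The sex of the animals is not in the labels. Results are therefore also given for replicates 2 and 3 alone.

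No mitochondrial ribosomal protein gene of the 72 passed the test between the genotypes. At an adjusted p of 0.05 by limma, 0 were higher and 0 lower in KO kidney, against 5.68% higher and 1.59% lower among all 14796 genes tested (4.11% and 1.27% of the 25834 probes). At an unadjusted p of 0.05 the same fit gave 0 higher and 6 lower, or 0% and 8.33%, against 14.6% and 6.31% of all genes. The smallest adjusted p of any member was 0.168, or 0.0652 with replicates 2 and 3 alone. All 72 passed the filter on dim probes, 69 had a mean level above the low-signal limit, and 66 were above it on all 6 arrays. Mrps9 lacked a value in KO replicate 1 and Mrps5 in WT replicate 2, so their fits used 5 arrays.

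For most of these genes the intervals were narrow. The 95% interval of the difference lay within 2-fold in either direction for 64 of 72 members and within 1.5-fold for 48, against 49.0% of all genes tested within 2-fold. The median standard deviation over 3 arrays was 0.16 log2 in KO and 0.17 log2 in WT for the members, and 0.31 and 0.34 for all tested probes. The members were also brighter, with 69 of 72 above the low-signal limit against 9559 of 14796 genes, each by its probe of highest mean. Over all tested probes, which include further probes of genes, it was 13525 of 25834. Neither the intervals nor the spreads were compared at like signal. The 8 members whose interval reached past 2-fold were Mrpl20, Mrpl47, Mrpl51, Mrpl57, Mrps5, Mrps11, Mrps14 and Mrps34. Mrps5 and Mrps14 were below the low-signal limit on every array with a value and Mrps34 on 5 of 6, so the arrays hold little information on these 3.

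**Figure D1:**
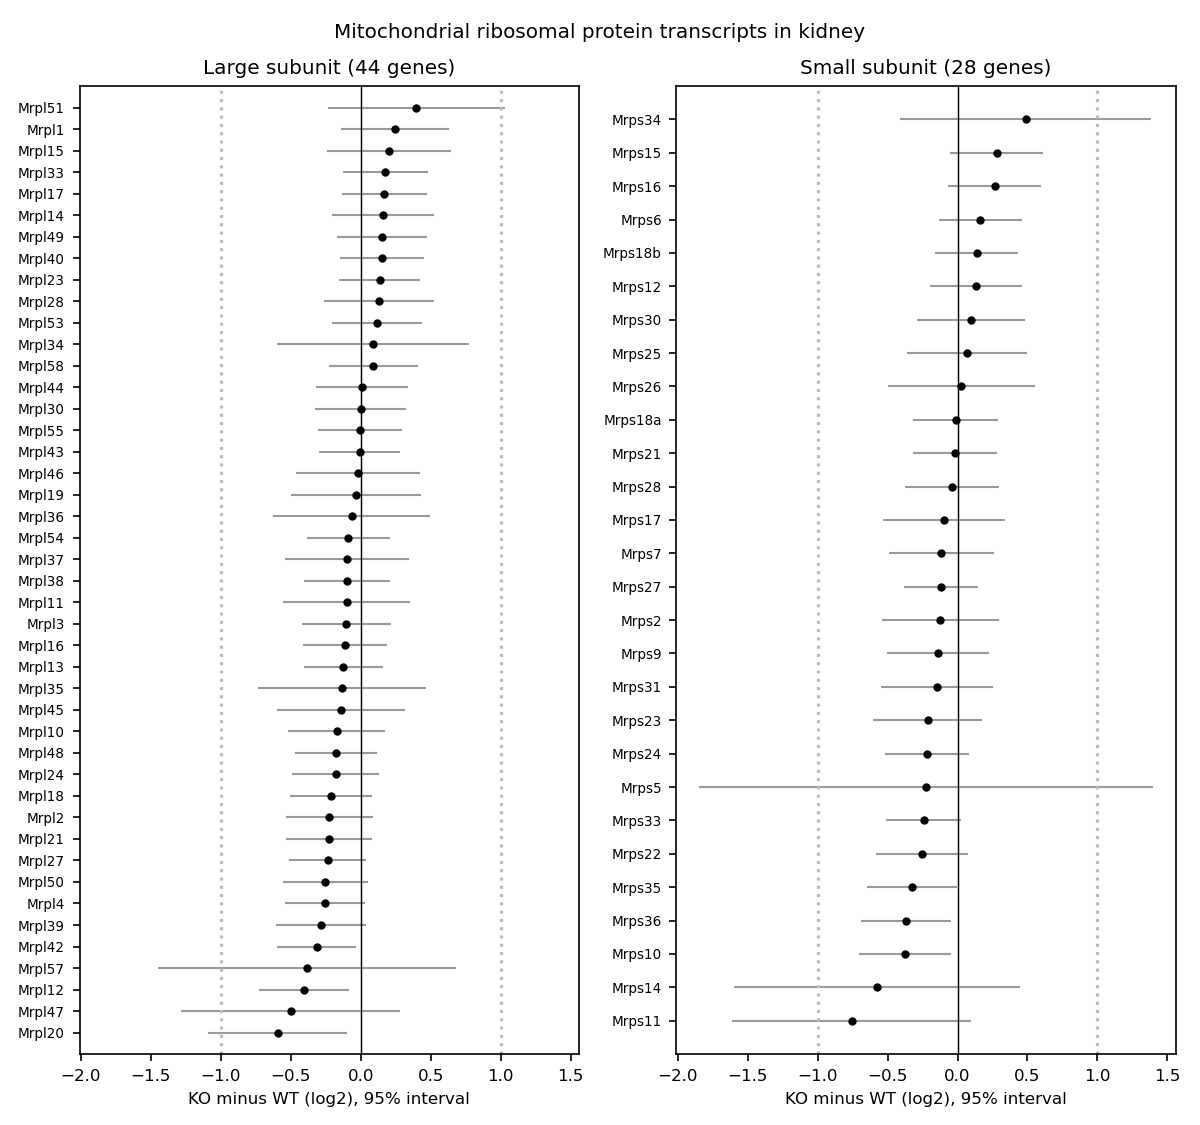
KO minus WT difference (log2) of each of the 72 mitochondrial ribosomal protein genes, large subunit left and small subunit right. Points are fitted differences, bars are 95% intervals, and dotted lines mark a 2-fold change in either direction. The points lie between -0.76 (Mrps11) and 0.49 (Mrps34), and 64 intervals stay between the dotted lines.

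The differences were small and more often negative than positive. Of the 72, 49 were negative and 23 positive, or 68.1% negative, against 42.5% of all genes. Their median was -0.10 log2, with a middle range of -0.22 to 0.09, beside a median of 0.08 over all genes. The groups did not overlap in 11 members lower in KO and 2 higher, of 70 with a value on every array. These shares, 15.7% and 2.86%, compare with 8.89% lower and 17.8% higher among all genes. The 11 lower in every KO array were Mrpl4, Mrpl12, Mrpl18, Mrpl27, Mrpl42, Mrpl50, Mrps10, Mrps14, Mrps24, Mrps27 and Mrps33, and the 2 higher were Mrpl17 and Mrps6. These names were picked by their values, and none passed the test.

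The median moved with single arrays. The median level over the 70 members was 4.55, 4.57 and 4.70 in KO replicates 1 to 3 and 4.58, 4.87 and 4.72 in WT replicates 1 to 3. The genotypes overlapped, with WT replicate 1 among the KO values and WT replicate 2 above all others. In WT replicate 2, 62 of 70 members lay above their own mean over the 6 arrays, and in KO replicate 1 only 19 did. Without WT replicate 2 the median difference was -0.01 log2, with 38 of 72 negative. It was -0.05 without KO replicate 1 and -0.09 with replicates 2 and 3 alone. It was more negative without any of the other arrays, at -0.17 without WT replicate 1, -0.13 without KO replicate 3, and -0.11 without KO replicate 2 or WT replicate 3. Set against the median of all genes on the same array, the members stood 2.66, 2.73 and 2.87 above it in KO and 3.00, 3.11 and 2.98 above it in WT. These values did not overlap, but the median of all genes was itself higher in KO (1.88, 1.84 and 1.83) than in WT (1.59, 1.76 and 1.74).

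**Figure D2:**
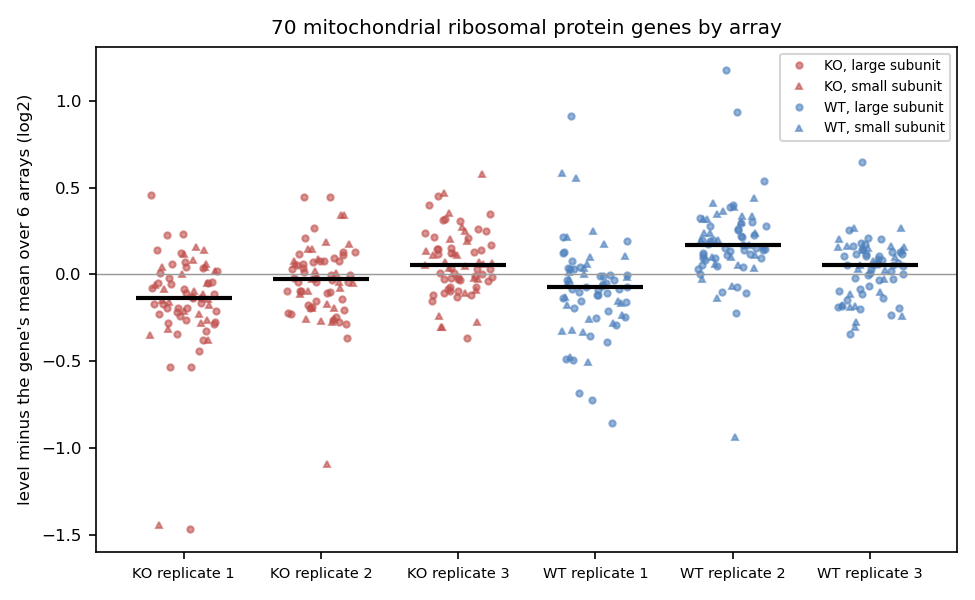
Level of each of 70 members (those with a value on all arrays) minus its mean over the 6 arrays, in log2, by array. Red is KO and blue is WT, circles are large and triangles small subunit genes, and black lines are medians. The medians run from -0.13 in KO replicate 1 to 0.17 in WT replicate 2, and the arrays of the genotypes overlap.

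Large and small subunit genes lay close together. The median difference was -0.10 log2 over the 44 large subunit genes, 30 of them negative, and -0.12 over the 28 small subunit genes, 19 of them negative. Of the 44 large and 26 small subunit genes with a value on every array, the groups did not overlap in 6 and 5 lower in KO. They did not overlap in 1 of each higher. Among all genes these shares were 8.89% lower and 17.8% higher. On single arrays, the median large subunit level minus the median small subunit level was -0.10, -0.21 and 0.03 log2 in KO and -0.11, -0.20 and -0.07 in WT, which overlapped. The gene names do not fully match the ribosome's structure. The products of Mrps30 and Mrps18a sit in the large subunit, and that of Mrps36 has been assigned to the oxoglutarate dehydrogenase complex. Grouped by structure, the medians were -0.09 over 46 large and -0.12 over 25 small subunit genes.

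Genes were also grouped by descent, with the subunit taken from structure. The 40 genes with a bacterial counterpart had a median difference of -0.11 log2, 28 of them negative. The 28 genes classed here as found only in mitochondrial ribosomes had a median of -0.09, with 17 negative. The remaining 4 of the 72, Mrpl55, Mrps18a, Mrps28 and Mrps36, were assigned to neither class. Mrps18b was placed in the mitochondria-specific class although the like-named Mrps18a was left unassigned, so the classes are approximate. The median was -0.13 over 10 mitochondria-specific genes of the small subunit and -0.05 over 18 of the large subunit. By name, with Mrps30 counted as small, the same classes hold 11 and 17 genes.

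Median levels on single arrays were less alike among these classes. Such a median follows the genes in the middle of the order on each array. It need not match the median of the gene differences in size or sign. In the 10 mitochondria-specific small subunit genes the medians were 4.57, 4.59 and 4.69 log2 in KO and 4.75, 5.01 and 4.86 in WT. Every KO array was below every WT array in this median, with the KO mean minus the WT mean at -0.26. The median gene difference of the class was smaller, at -0.13, with 6 of 10 negative. In the 12 small subunit genes of bacterial descent with a value on all arrays the medians were 5.05, 5.08 and 5.12 in KO and 4.97 to 5.16 in WT. These overlapped, with the KO mean 0.04 higher, although the median gene difference of the class was -0.12, with 10 of 14 tested genes negative. The 18 mitochondria-specific genes of the large subunit gave 3.50, 3.62 and 3.67 in KO and 3.54, 3.80 and 3.68 in WT, and overlapped. The 26 of bacterial descent gave 4.87, 5.08 and 5.02 in KO and 4.83, 5.32 and 5.03 in WT, and also overlapped. Over both subunits the KO mean of these medians minus the WT mean was -0.20 for mitochondria-specific genes and -0.07 for those of bacterial descent. The median gene differences had the reverse order, at -0.09 with 17 of 28 negative and -0.11 with 28 of 40 negative. The medians of levels therefore do not show a larger fall in mitochondria-specific genes. No class was tested against another.

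The 6 members at an unadjusted p under 0.05 were all lower in KO. Mrpl12 encodes the stalk protein that recruits translation factors and is also reported to bind the mitochondrial RNA polymerase. The gene lies at chr11:120484637-120488754 (GRCm38.p6). It read 6.26, 6.32 and 6.56 log2 in KO and 6.71, 6.89 and 6.77 in WT. Every KO array was below every WT array, and the difference was -0.41 ± 0.15 (0.754-fold, 95% interval 0.603 to 0.944, limma adjusted p = 0.168). Mrps10, a protein of the small subunit with a bacterial counterpart (chr17:47368887-47381418), read 2.83, 3.13 and 2.81 in KO and 3.33, 3.31 and 3.26 in WT. Its groups also did not overlap, with a difference of -0.38 ± 0.15 (limma adjusted p = 0.220). Mrpl42, a mitochondria-specific protein of the large subunit (chr10:95480805-95501949), read 4.54, 4.50 and 4.74 in KO and 4.97, 4.95 and 4.81 in WT, again without overlap, a difference of -0.31 ± 0.13 (limma adjusted p = 0.231).

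In the other 3 the genotypes overlapped. Mrpl20, whose bacterial counterpart takes part in early assembly of the large subunit (chr4:155802878-155808831), read 5.73, 6.06 and 6.11 in KO and 7.18, 6.43 and 6.07 in WT. WT replicate 1 was far above the other WT arrays, and the difference was -0.59 ± 0.23 (limma adjusted p = 0.194), but -0.28 without that array. Mrps36 read 6.07, 5.78 and 5.75 in KO and 6.06, 6.39 and 6.25 in WT, with replicate 1 of both genotypes at nearly the same level, and differed by -0.37 ± 0.15 (limma adjusted p = 0.224). Mrps35, a mitochondria-specific protein of the small subunit, read 5.02, 4.73 and 4.71 in KO and 4.96, 5.39 and 5.08 in WT, and differed by -0.33 ± 0.15 (limma adjusted p = 0.296).

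**Figure D3:**
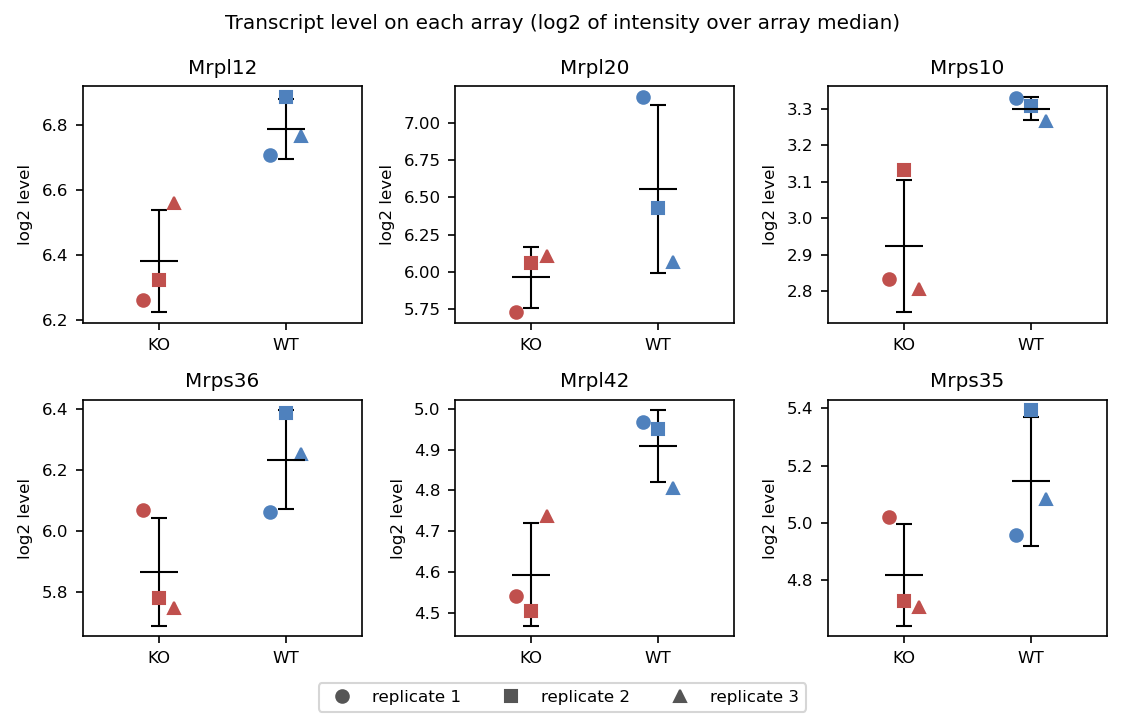
Level (log2 of intensity over the array median) of the 6 members with an unadjusted p under 0.05, KO left and WT right in each panel, with axes that do not start at 0. Points are single arrays, shaped by replicate number, and bars are the mean ± SD of 3 arrays. The genotypes are separate for Mrpl12, Mrps10 and Mrpl42 and overlap for Mrpl20, Mrps36 and Mrps35.

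Other members with large negative values had low signal or 1 array far from its group. Mrps11, a small subunit protein of bacterial descent, read 0.06, 1.22 and 2.08 log2 in KO and 2.05, 1.82 and 1.76 in WT, so that 1 KO array was the highest of all 6. Its difference was -0.76 ± 0.40 (limma adjusted p = 0.367), but -0.23 without KO replicate 1 and -1.24 without KO replicate 3. Mrpl47 read 1.32, 1.71 and 1.78 in KO and 1.17, 3.03 and 2.11 in WT, where WT spanned the KO values. Its difference of -0.50 ± 0.36 was -0.04 without WT replicate 2 and -0.97 without WT replicate 1. Mrpl57 read -0.72, 1.19 and 1.19 in KO and 0.39, 1.02 and 1.39 in WT, and its difference of -0.38 ± 0.49 was 0.26 without KO replicate 1.

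The most positive differences above the limit were smaller. Mrpl51, a mitochondria-specific protein of the large subunit, read 1.66, 1.66 and 1.88 log2 in KO and 0.68, 1.63 and 1.70 in WT. All WT arrays but replicate 1 were close to the KO values, and the difference was 0.40 ± 0.29 (limma adjusted p = 0.560), but 0.07 without WT replicate 1. Mrps15 read 5.61, 6.06 and 5.92 in KO and 5.49, 5.77 and 5.48 in WT, a difference of 0.28 ± 0.15 (limma adjusted p = 0.398), with 1 KO array below the highest WT array. Mrps16, a small subunit protein whose loss causes a human mitochondrial disease, read 6.11, 6.08 and 6.42 in KO and 5.74, 6.11 and 5.97 in WT, a difference of 0.26 ± 0.16. Mrpl1, Mrpl15 and Mrpl33 differed by 0.25 ± 0.18, 0.20 ± 0.21 and 0.18 ± 0.14, each with overlapping genotypes. With 1 array left out, Mrps15 ran from 0.18 to 0.41, Mrps16 from 0.16 to 0.35, Mrpl1 from 0.07 (without WT replicate 1) to 0.38 and Mrpl15 from 0.02 (without KO replicate 1) to 0.44.

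Among the 3 genes of each subunit with the highest mean signal, Mrpl17 read 6.53, 6.55 and 6.64 log2 in KO and 6.33, 6.49 and 6.39 in WT. The groups did not overlap and the difference was 0.17 ± 0.14 (limma adjusted p = 0.616). Mrpl30 averaged 6.39 ± 0.12 in KO and 6.39 ± 0.18 in WT (SD, n = 3 each), with an interval of 0.798-fold to 1.25-fold. Its sign turned in cyclic loess and quantile scaling and in several fits without 1 array. Mrps24 averaged 5.92 ± 0.12 in KO and 6.14 ± 0.11 in WT. Mrps33, chosen here after its values were seen, separated with little spread. It read 5.09, 5.01 and 5.07 in KO and 5.28, 5.28 and 5.34 in WT, and differed by -0.24 ± 0.12 (limma adjusted p = 0.353).

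Further probes of the same genes often differed in sign. Among the members, 11 genes had 13 further probes, of which 9 were tested and 0 passed by limma. Of those 9, 6 had the opposite sign to the probe that stood for the gene, and so did 3 of the 4 with a mean above the low-signal limit. For Mrpl21 the chosen probe read 4.62, 4.63 and 4.98 log2 in KO and 4.85 to 5.06 in WT, lower in KO on balance. A further probe read 2.59, 2.81 and 2.52 in KO and 2.28, 2.63 and 2.30 in WT, higher in KO on balance. Their differences were -0.23 ± 0.14 and 0.24 ± 0.18. The probes of Mrps7 differed by -0.12 ± 0.17 and 0.57 ± 0.39, and those of Mrps30 by 0.10 ± 0.18 and -0.05 ± 0.20. For Mrpl35 they differed by -0.13 ± 0.28 and 0.32 ± 0.53, the last with no array above the limit. For Mrps12, whose bacterial counterpart lines the decoding centre, both probes were positive, at 0.13 ± 0.15 and 0.25 ± 0.16.

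Promoter sequences were not used in choosing these genes, and are shown for motifs held more often by members than by all genes. Promoters, as 250 bases before to 50 after the RefSeq start (GRCm38.p6), were found for 63 of the 72 genes. They were searched on both strands for exact matches to a core of the site of NRF1 in which 1 inner base was free, of ETS factors such as GABP (CCGGAAGT) and of YY1, all spelled out by the capitals in the sequences that follow. These factors are known as regulators of nuclear genes for mitochondrial proteins. The NRF1 letters were in 11 member genes (17.5%, against 5.19% of 27025 genes with a promoter), the ETS letters in 10 (15.9%, against 4.31%) and the YY1 letters in 5 (7.94%, against 0.995%). At least 1 of the 3 was in 24 of 63 (38.1%, against 9.79%), so most members held none. A match describes these letters and is not evidence of binding. Median KO minus WT differences were -0.02 log2 over the 11 members with NRF1 letters and -0.11 over the 52 without, -0.11 and -0.10 for ETS, and -0.12 and -0.10 for YY1.

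The promoters of 4 members, chosen because they hold matches, follow, 5′ to 3′ on the plus strand, with matches on either strand in capitals. The Mrpl12 promoter (chr11:120484387-120484686) belongs to the member of smallest p and holds 1 NRF1 match at -81 from the start. That of Mrpl45 (chr11:97315466-97315765), a protein that helps to anchor the ribosome at the inner membrane, holds 3 NRF1 matches, at -120, -38 and 16. That of Mrps27 (chr13:99344536-99344835), an RNA-binding protein of the small subunit, holds 1 ETS match at -49 and 1 YY1 match at 15. That of Mrps11 (chr7:78782881-78783180) holds 1 YY1 match at -109 and lies back to back with Mrpl46. No matches overlapped in these 4.
Mrpl12: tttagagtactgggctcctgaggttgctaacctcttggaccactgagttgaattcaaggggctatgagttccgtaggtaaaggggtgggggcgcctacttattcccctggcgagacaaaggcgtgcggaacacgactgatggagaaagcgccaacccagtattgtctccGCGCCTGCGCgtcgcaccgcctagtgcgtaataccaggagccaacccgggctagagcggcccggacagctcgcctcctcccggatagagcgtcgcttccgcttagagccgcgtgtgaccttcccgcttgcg
Mrpl45: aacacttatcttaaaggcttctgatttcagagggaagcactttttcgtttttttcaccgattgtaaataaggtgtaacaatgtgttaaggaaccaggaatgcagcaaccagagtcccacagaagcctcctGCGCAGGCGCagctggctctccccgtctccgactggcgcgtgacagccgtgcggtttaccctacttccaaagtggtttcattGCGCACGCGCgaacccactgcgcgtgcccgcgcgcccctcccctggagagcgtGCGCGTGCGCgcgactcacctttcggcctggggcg
Mrps27: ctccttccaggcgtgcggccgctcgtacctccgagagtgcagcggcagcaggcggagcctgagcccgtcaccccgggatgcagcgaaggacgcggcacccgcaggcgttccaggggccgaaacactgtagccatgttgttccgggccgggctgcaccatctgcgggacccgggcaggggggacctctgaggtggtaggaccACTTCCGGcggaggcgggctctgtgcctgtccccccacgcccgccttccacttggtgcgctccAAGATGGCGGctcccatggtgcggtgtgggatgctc
Mrps11: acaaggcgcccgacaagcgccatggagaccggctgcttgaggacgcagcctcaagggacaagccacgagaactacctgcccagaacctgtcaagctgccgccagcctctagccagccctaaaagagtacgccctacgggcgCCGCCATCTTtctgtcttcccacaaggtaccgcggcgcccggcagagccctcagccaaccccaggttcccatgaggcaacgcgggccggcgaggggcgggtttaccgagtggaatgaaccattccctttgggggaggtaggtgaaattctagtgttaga

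None of these 4 genes passed the test. Mrpl45 averaged 1.92 ± 0.25 log2 in KO and 2.07 ± 0.14 in WT (SD, n = 3 each), with overlapping groups and a difference of -0.14 ± 0.21. Mrps27 read 4.95 to 5.02 in KO and 5.05 to 5.15 in WT, without overlap but only -0.12 ± 0.12 apart (0.923-fold, 95% interval 0.767 to 1.11). Mrps11 and Mrpl46, a small and a large subunit gene read in opposite directions from starts 42 bases apart, differed by -0.76 ± 0.40 and -0.02 ± 0.21. Mrpl46 read 2.34, 3.16 and 2.62 in KO and 2.65, 2.81 and 2.72 in WT.

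Such back-to-back starts were common among the members. Of the 63, 23 had a start on the opposite strand within 1000 bases upstream (36.5%, against 12.3% of all genes in the promoter table). Each had 1 partner, and Mrps11 and Mrpl46, both members, count as partners of each other. Of the 23 partners so counted, 18 were tested, and 0 were higher and 0 lower in KO at an adjusted p of 0.05 by limma. Among all genes 5.68% were called higher and 1.59% lower, so few calls would be expected among so few partners. The partner of Mrpl43, Twnk, encodes the mitochondrial DNA helicase and differed by -0.58 ± 0.50. The partner of Mrpl47, Ndufb5, encodes a subunit of complex I and differed by -0.25 ± 0.16.

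Other genes of mitochondrial gene expression likewise gave no call. Ribosomal subunits not named Mrpl or Mrps, Dap3, Ptcd3, Gadd45gip1 and Chchd1, had a median of -0.28 log2, with 4 of 4 negative and 0 called. Dap3, a GTP-binding protein of the small subunit, read 4.52, 4.48 and 4.63 in KO and 4.43, 5.04 and 5.11 in WT. WT replicate 1 was below all KO arrays, and the difference was -0.32 ± 0.17 (limma adjusted p = 0.384), but -0.53 without WT replicate 1 (limma adjusted p = 0.0379). Of 15 translation factors and regulators tested, 0 were called, 9 were negative and 6 positive, and the median was -0.12. Taco1, of smallest p among these, read -0.21, -0.90 and -0.18 in KO and 0.15, 0.95 and 1.20 in WT, without overlap. It was below the low-signal limit on all KO arrays and differed by -1.20 ± 0.45 (limma adjusted p = 0.171). Lrpprc, which stabilises mitochondrial messenger RNAs, differed by -0.52 ± 0.20 (limma adjusted p = 0.196) with 2 KO arrays. Of 20 mitochondrial aminoacyl-tRNA synthetase and amidotransferase genes, 0 were called, 11 were negative and 9 positive, and the median was -0.15. Fars2 and Tars2 differed by -0.26 ± 0.13 and 0.32 ± 0.19. Rars2, which charges the arginine tRNA, read 2.61, 2.98 and 2.89 in KO and 3.00, 3.38 and 3.46 in WT, a difference of -0.45 ± 0.17 (limma adjusted p = 0.186), which passed after quantile scaling and cyclic loess (0.0369 and 0.0370).

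Of 23 ribosome assembly factors 0 were called, 14 were negative and 9 positive, and the median was -0.07 log2. Afg3l2, of smallest p in this list, read 4.66, 4.61 and 4.73 in KO and 4.90, 5.12 and 4.90 in WT. Its groups did not overlap, with a difference of -0.30 ± 0.13 (limma adjusted p = 0.246). Gtpbp10 differed by -0.34 ± 0.21. The most positive, Spg7, differed by 0.88 ± 0.49, below the low-signal limit on every array. Of 16 genes of mitochondrial DNA upkeep and transcription 0 were called, 11 were negative and 5 positive, and the median was -0.11. Pnpt1 differed by 2.69 ± 1.37, with KO replicate 1 at 7.54 and the other arrays at -0.32 to 0.46. Polg2, the accessory subunit of the mitochondrial DNA polymerase, had the smallest adjusted p of these lists. It read -0.06, -0.34 and 0.38 in KO and 1.68, 0.65 and 1.46 in WT, below the low-signal limit on all KO arrays (limma adjusted p = 0.0863). Of 10 regulators of mitochondrial biogenesis 0 were called, 6 were negative and 4 positive, and the median was -0.12. Esrrg differed by 0.31 ± 0.22, Ppargc1a by 0.54 ± 0.45 and Myc by 0.59 ± 0.44. Ppargc1b, a coactivator, differed by -0.46 ± 0.20, and Esrra, a nuclear receptor it acts on, read 2.74, 2.63 and 2.80 in KO and 2.94, 3.11 and 2.92 in WT, a difference of -0.27 ± 0.16 (limma adjusted p = 0.434).

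Cytosolic ribosomal proteins, set beside the mitochondrial ones, were mostly positive, also without a call. Of 55 tested, 0 were higher and 0 lower by limma, against 5.68% and 1.59% of all genes. Of these 55, 43 were positive and 12 negative, and the median was 0.17 log2. At an unadjusted p of 0.05 by limma, 3 of the 55 were higher and 0 lower, against 14.6% and 6.31% of all genes. Rps24 read 6.75, 6.80 and 6.77 in KO and 6.08, 6.51 and 6.34 in WT, a difference of 0.46 ± 0.15 (limma adjusted p = 0.115), which passed after quantile scaling and cyclic loess (0.0279 and 0.0345). The medians of mitochondrial and cytosolic members lay on opposite sides of that of all genes. No test of this contrast between lists was made.

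**Figure D4:**
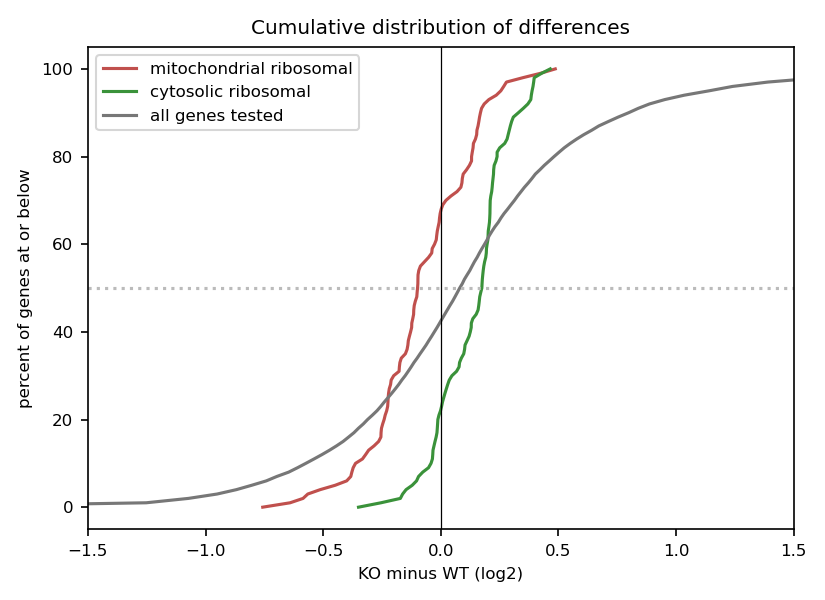
Cumulative distribution of KO minus WT differences (log2) over 72 mitochondrial ribosomal protein genes, 55 cytosolic ribosomal protein genes and 14796 genes tested. The curves cross 50% at -0.10, 0.17 and 0.08, and both ribosomal curves are steeper than that of all genes.

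Markers of 3 of the 4 cell type lists differed by more than the mitochondrial ribosomal genes in the same fit. Of 13 proximal tubule markers tested, 6 fell and 0 rose, with 13 of 13 negative and a median of -0.76 log2. Their summed linear level, over the 12 with a value on every array, was 654.9 to 678.2 in KO and 1116 to 1331 in WT. Of 10 leukocyte markers, 6 rose and 0 fell, with a summed level over 8 of 199.3 to 301.04 in KO and 41.3 to 50.4 in WT; Adgre1 was below the low-signal limit on every array. Of 10 fibroblast and matrix markers, 9 rose and 0 fell, with a summed level of 466.7 to 499.4 in KO and 132.5 to 150.3 in WT. The organic anion transporter Slc22a8 differed by -1.48 ± 0.24, the myeloid receptor Cd14 by 2.42 ± 0.17 and fibronectin (Fn1) by 1.99 ± 0.13. The other nephron segments had a median of 0.05 log2 over 7 tested markers, of which 1 fell (Pvalb, of the distal convoluted tubule) and 0 rose. Their summed level, over 8, was 525.6 to 642.1 in KO and 479.1 to 608.0 in WT, which overlapped, and Podxl was below the low-signal limit on every array. With replicates 2 and 3 alone, Pvalb and the proximal tubule marker Hnf4a did not pass (limma adjusted p = 0.0572 and 0.0559). The summed level of the 70 mitochondrial ribosomal genes was 1946 to 2151 in KO and 2075 to 2349 in WT. In such bulk RNA fewer cells of a type and less RNA per cell cannot be told apart, and the part of these markers in the members' levels was not tested.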

How the data were processed

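Kidney RNA of 3 KO and 3 WT mice was hybridised to 1 CodeLink array each, per the labels' protocols. The deposited values are linear intensities, 1 per probe and array. Some are negative and the array medians are near 1, so they were background-subtracted and scaled by the authors, as read from the values. The software used was not stated in those labels. Each array was divided by its median. Zero and negative values became missing, a floor was set at the 10th percentile of the positive ones (0.290), and log2 was taken. Of 34937 probes, 34445 had values on at least 2 arrays per genotype, and 25834 remained after the dimmest 25% were left out. KO minus WT was tested with limma 3.58.1 in R 4.3.3 (lmFit, eBayes with an intensity trend, two-sided), adjusted by Benjamini-Hochberg over all probes. The fit was tested on simulated arrays. The low-signal limit is the mode of the linear values plus 3 times the spread below it. The number of arrays limits the precision.

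Of the probes, 21590 carried 1 gene symbol, 681 several and 12666 none. All 72 members matched RefSeq (GRCm38.p6) by gene identifier. The members and lists were chosen with earlier results of these data known, so no list was tested. Genes named are the 6 largest differences in each direction above the limit, the 3 of highest signal per subunit, those of smallest p without overlap, those whose probes differ in sign and up to 3 per list by smallest p. Other members named were chosen after their values were seen. Alternatives covered scaling, floor, filters, variance model, array weights, replicate block, probe choice, subunit assignment and arrays left out.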

Additional observations from a re-analysis of the deposited data

How the results depend on the processing

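In all 21 alternatives run, limma called 0 mitochondrial ribosomal protein genes higher and 0 lower in KO. The smallest member adjusted p was 0.0573 after quantile scaling, 0.0642 after cyclic loess and 0.392 with no intensity trend. In fits with arrays left out it ran from 0.0652 (replicates 2 and 3 alone) to 0.204 (without KO replicate 2). With no intensity trend 191 of 25834 probes passed, against 1392 in the main fit, so the share of all probes called depended on that trend. The median difference over the members was negative in each, from -0.20 (quantile) to -0.01 (without WT replicate 2), and in each refit below that of all genes. With arrays left out in turn, it ran from -0.17 to -0.01. Quantile scaling moved the median of all genes to -0.01, against 0.08. The large minus small subunit median ran from -0.05 to 0.06 over 22 alternatives, positive in 17.

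Of 420 recomputed values of 21 named members, 0 crossed the threshold and 11 changed sign. Mrpl30 was 0.0059 after cyclic loess and 0.012 after quantile scaling, and 0.066 without KO replicate 1, 0.023 without WT replicate 2 and 0.072 without WT replicate 3. Mrps30 was -0.039 after cyclic loess and -0.067 after quantile scaling. With arrays left out in turn, Mrpl30 ran from -0.0985 to 0.0722, Mrps30 from -0.0523 (without KO replicate 2) to 0.25, Mrpl57 from -0.70 to 0.26 (without KO replicate 1), Mrps7 from -0.31 to 0.0228 and Mrpl35 from -0.27 to 0.036, the last 2 highest without WT replicate 2. Calb1, a nephron marker on the lists, was -0.083 with only replicates 2 and 3 and ran from -0.0233 (without WT replicate 1) to 0.384. Among the other listed genes, Polg2 passed with array weights (limma adjusted p = 0.0491) and without WT replicate 2 (0.043), and Slc22a8, Slc5a12, Hnf4a and Pvalb missed with no intensity trend (0.140 to 0.165), as did Hnf4a (0.0559) and Pvalb (0.0572) with only replicates 2 and 3. The cause of these turns was not tested.

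With replicate number as a block, the members' median was -0.10 and 0 were called, while 1856 probes passed against 1392. Same-numbered arrays correlated at 0.0199 to 0.0719 in their deviations from the group means. Each array correlated best with its own number, a hint from the data and not from the design.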

Other observations

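Probes that name a mitochondrial ribosomal gene together with another gene were left out of the members. The probe for Mrpl32 and Gm6578 read 4.22, 4.07 and 4.03 log2 in KO and 4.14, 4.40 and 4.39 in WT, a difference of -0.20 ± 0.14 (limma adjusted p = 0.514). Those for Mrps6 and Slc5a3, and for Mrps25 and Nr2c2, differed by 0.03 ± 0.17 and -0.09 ± 0.27. Mrpl9, Mrpl22, Mrpl41, Mrpl52 and Mrps18c were not analysed here.

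Among genes that start back to back with a member, Ncapd2, the partner of Mrpl51, differed by 0.63 ± 0.20 (limma adjusted p = 0.106), Gga3, the partner of Mrps7, by 0.52 ± 0.17 (limma adjusted p = 0.119), and Zfp189, the partner of Mrpl50, by 0.52 ± 0.18 (limma adjusted p = 0.133). Their mitochondrial ribosomal neighbours differed by 0.40, -0.12 and -0.25.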
